A study of Mus musculus with 6 samples.

Results

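The genes described here are 10 components of tumour necrosis factor (TNF) signalling in the retinal pigment epithelium (RPE), the cell layer behind the photoreceptors, and they were taken from a fixed list: the ligand gene Tnf, the receptor genes Tnfrsf1a, Tnfrsf1b, Tnfrsf12a and Fas, and the NF-kB genes Nfkb1, Nfkb2, Nfkbia, Tnfaip3 and Birc3. Of these 10, 9 were measured among 18193 genes on the array, by 18 probe sets, and Nfkb1 was not analysed here. Each gene was read from the probe set with the highest mean over all arrays, and the other 9 probe sets, which belong to 6 of the genes, served as a check. The RNA came from RPE of BALB/c mice, an albino strain. All mice, controls included, had been kept in the dark for 1 week. The 3 dark-adapted samples had no further treatment, and the 3 light-damaged samples came from mice that then received 1.5 h of white fluorescent light at 6000 lux, with RPE taken 24 h later. The labels give neither age nor sex, and they do not say whether a sample was 1 animal or a pool, so each p-value refers to the variation among these arrays alone, part or all of which may be technical.

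TNF is an inflammatory cytokine that binds the receptors encoded by Tnfrsf1a and Tnfrsf1b. Receptors of this family recruit adaptor proteins and the ubiquitin ligase encoded by Birc3, and these activate IkB kinase, which marks the inhibitor encoded by Nfkbia for destruction and so frees NF-kB transcription factors to enter the nucleus. NF-kB in turn induces Nfkbia and Tnfaip3, whose products shut the signal off, and this negative feedback makes both genes common readouts of the pathway. In an alternative branch, receptors such as those of Tnfrsf12a and Ltbr lead to processing of the Nfkb2 product, which then acts with the product of Relb.

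The upstream sequences of 4 of the genes are shown because the feedback arm of the pathway rests on kappaB elements, the DNA sites of NF-kB. Of these 4, as described below, Tnfrsf12a rose, Tnfaip3 fell, and Nfkbia and Nfkb2 did not pass by their brightest probe sets. Each sequence is the stretch of 250 bases before an annotated start in RefSeq, on the strand of the gene in build GRCm38.p6. All 9 measured genes had an entry. Capitals mark matches to the kappaB consensus, which opens with GGG, goes on with a purine, any base, an A or T and a pair of pyrimidines, and closes with CC, searched on both strands. The windows lie at chr10:19015411-19015660 for the first start of Tnfaip3, chr12:55492648-55492897 for Nfkbia, chr19:46304487-46304736 for the first start of Nfkb2 and chr17:23677450-23677699 for Tnfrsf12a; all but that of Nfkb2 are on the minus strand.
Tnfaip3: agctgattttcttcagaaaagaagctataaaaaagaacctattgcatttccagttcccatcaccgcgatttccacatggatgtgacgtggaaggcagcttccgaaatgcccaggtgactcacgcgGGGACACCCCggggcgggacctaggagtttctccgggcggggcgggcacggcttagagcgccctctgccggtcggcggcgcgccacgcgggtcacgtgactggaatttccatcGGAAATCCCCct
Nfkbia: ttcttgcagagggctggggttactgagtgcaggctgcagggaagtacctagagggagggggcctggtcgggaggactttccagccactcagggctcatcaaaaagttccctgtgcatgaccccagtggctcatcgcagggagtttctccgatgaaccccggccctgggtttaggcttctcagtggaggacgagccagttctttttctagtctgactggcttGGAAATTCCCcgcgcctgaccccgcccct
Nfkb2: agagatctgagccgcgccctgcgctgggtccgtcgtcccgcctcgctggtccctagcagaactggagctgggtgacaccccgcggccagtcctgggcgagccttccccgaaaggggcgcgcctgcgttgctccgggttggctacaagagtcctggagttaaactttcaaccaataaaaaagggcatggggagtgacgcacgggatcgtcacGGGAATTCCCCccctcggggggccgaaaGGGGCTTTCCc
Tnfrsf12a: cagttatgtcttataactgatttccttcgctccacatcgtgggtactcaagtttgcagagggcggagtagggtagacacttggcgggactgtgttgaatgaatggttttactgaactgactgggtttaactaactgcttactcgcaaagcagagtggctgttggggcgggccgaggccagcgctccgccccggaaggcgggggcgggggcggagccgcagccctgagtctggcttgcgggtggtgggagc

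The 9 measured genes had 12 such windows, and 5 windows of 3 genes, Nfkb2, Nfkbia and Tnfaip3, held a match. Among all 32851 windows of the table, 3.9% held one, and by gene the share was 4.46% of 27025. The list was drawn up to hold NF-kB feedback genes, so these shares describe it and do not test it. The match of Nfkbia lay 29 to 20 bases before the start. In Tnfaip3 there was a match at 12 to 3 bases and another at 125 to 116 bases before the first start, and the window of its second start held none. In Nfkb2, matches on both strands overlapped at 39 to 29 bases before the first start, and a further one lay at 11 to 2 bases. The windows of Tnf, Tnfrsf1a, Tnfrsf1b, Tnfrsf12a, Fas and Birc3 held no stretch with these letters, which says nothing of sites elsewhere.

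In light-damaged RPE, Tnfrsf12a, Tnfrsf1a, Tnfrsf1b and Birc3 rose and Tnfaip3 fell, while Tnf, Fas, Nfkb2 and Nfkbia did not pass the test by their brightest probe sets. Differences are light-damaged minus dark-adapted, in log2 units ± standard error with n = 3 per group. They come from limma with the replicate number as a block, and a gene was called at a Benjamini-Hochberg adjusted p under 0.05 over all genes. Thus 4 of 9 genes were called higher and 1 lower. Of all 18193 genes, 4.99% were called, 3.07% higher and 1.92% lower. The list was drawn up with earlier results of these arrays known, so this contrast describes the list and does not test it. The median difference of the 9 genes was 0.18, against -9.38e-05 over all genes. Differences were above 0 in 3 of 3 replicate pairs for 7 genes and below 0 in 3 of 3 pairs for Tnfaip3, and Fas was mixed. The 7 include Tnf, Nfkb2 and Nfkbia, which did not pass. How often all genes kept 1 sign over 3 pairs was not counted, so these counts do not set the 9 genes apart. The 2 groups did not overlap for 3 of 9 genes with the light-damaged arrays higher and for 0 of 9 with them lower, against 6.61% and 3.72% of all genes.

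With all 6 arrays these calls depended on the pairing. Without the block limma then called none of the 9 genes and 0.0495% of all genes, although the same 4 rises and 1 fall had an unadjusted p under 0.05, and their adjusted p-values lay between 0.177 for Tnfrsf12a and 0.811 for Birc3. The replicate 1 arrays stood apart. They had the highest value of their group for 8 of the 9 genes in both groups, and the lowest for Tnfaip3. The 3′ minus 5′ log2 difference of the Gapdh control probe sets, which tracks how intact and how fully labelled the RNA was, came to 2.45 and 2.48 in them and lay between 1.54 and 1.80 in the other arrays. Within pairs it was 2.48 in the light-damaged against 2.45 in the dark-adapted array of pair 1, 1.80 against 1.54 in pair 2 and 1.594 against 1.601 in pair 3. The same measure of Actb was 2.80 in the light-damaged against 2.79 in the dark-adapted array of pair 1, but lower in the light-damaged array of the other pairs, at 1.83 against 2.25 in pair 2 and 1.76 against 2.15 in pair 3. The part of these differences in the calls was not tested. Without the replicate 1 pair the block fit still called 4 rises and 1 fall. Without these arrays and also without the block, a setting added after seeing the data, limma called 3 rises and 1 fall, with adjusted p-values of 0.0025 for Tnfrsf12a, 0.0064 for Tnfrsf1a, 0.039 for Tnfrsf1b and 0.020 for Tnfaip3, and 0.15 for Birc3, which did not pass. Without the replicate 2 pair it called 2 rises, those of Tnfrsf12a and Tnfrsf1a, and the fall. Without the replicate 3 pair the rise of Tnfrsf12a alone remained called. Calls over all 18193 genes changed as well. There were 908 with all pairs, 1245 without the replicate 1 pair and 793 without it and the block. Without the replicate 2 pair there were 677, and without the replicate 3 pair 228. The changes among the 9 genes are therefore not particular to them.

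**Figure D1:**
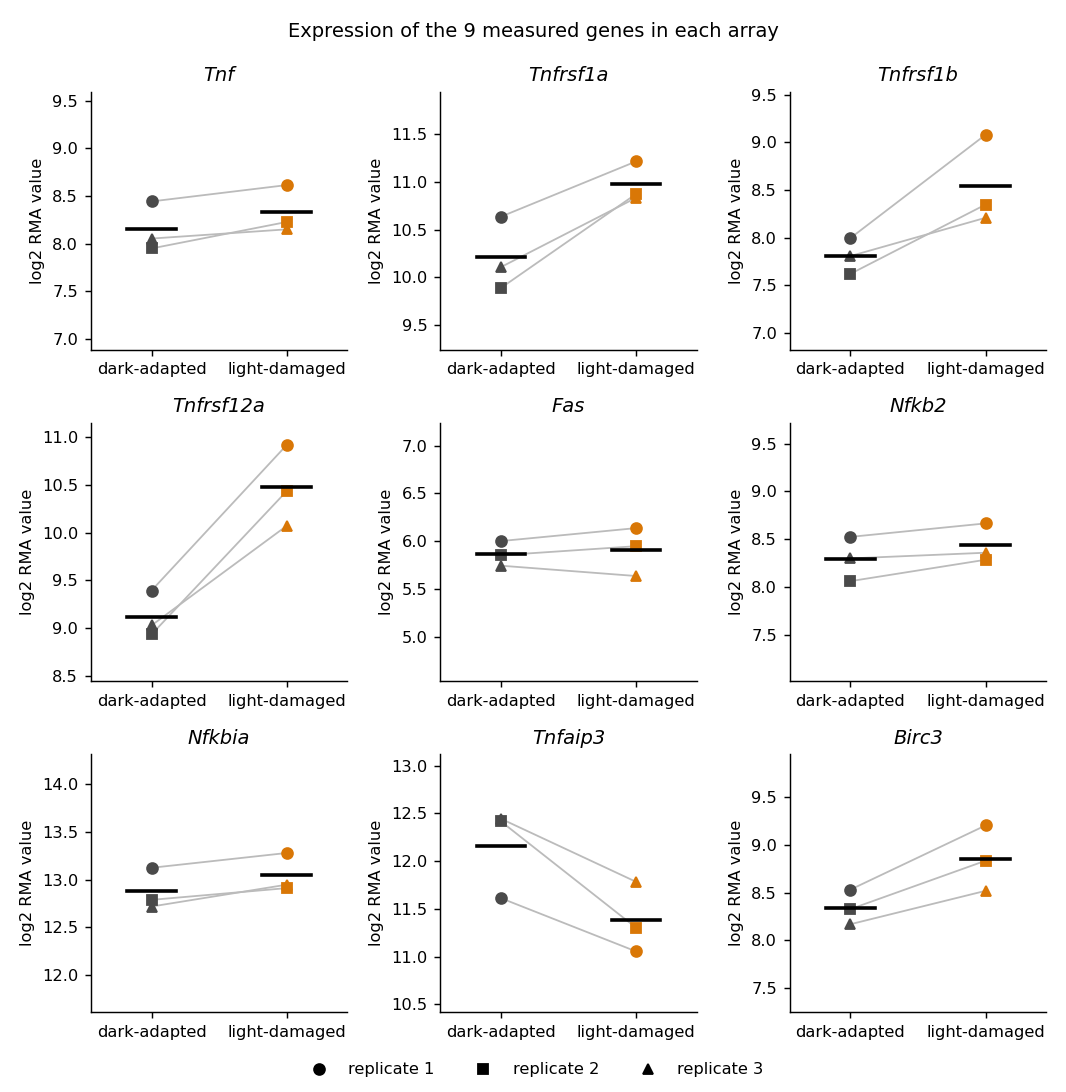
Log2 expression of each measured gene in the 3 dark-adapted (grey) and 3 light-damaged (orange) arrays. Marker shapes give the replicate number, grey lines join arrays of the same number, black bars are group means, and every panel spans the same log2 range. Tnfrsf12a, Tnfrsf1a and Tnfrsf1b have groups that do not overlap, and Tnfaip3 falls along all 3 lines.

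The ligand gene Tnf had values of 8.44, 7.95 and 8.05 in dark-adapted replicates 1, 2 and 3 and 8.61, 8.23 and 8.15 in light-damaged replicates 1, 2 and 3. The groups overlapped, since the replicate 1 control lay above light-damaged replicates 2 and 3. The difference was 0.18 ± 0.09 with a 95% interval of -0.03 to 0.40, and it did not pass (limma adjusted p = 0.35).

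Tnfrsf12a, which encodes Fn14, the receptor of the cytokine TWEAK, had the largest difference of the 9 genes. Its values were 9.39, 8.93 and 9.03 in dark-adapted and 10.92, 10.44 and 10.07 in light-damaged replicates 1 to 3. The lowest light-damaged array thus lay above the highest control. The gene rose 2.56-fold (1.36 ± 0.12, 95% interval 1.07 to 1.65, limma adjusted p = 0.0040), and the increase was 1.52, 1.50 and 1.04 in pairs 1, 2 and 3. Its second probe set, an x_at set that can bind related transcripts, gave 1.44 ± 0.12.

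Tnfrsf1a encodes the TNF receptor that carries a death domain and is made by most cell types. Its values were 10.64, 9.89 and 10.11 in dark-adapted and 11.21, 10.87 and 10.83 in light-damaged replicates 1 to 3. The groups did not overlap, although the replicate 1 control came close to the lowest light-damaged array. The rise was 1.70-fold (0.76 ± 0.11, limma adjusted p = 0.015).

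Tnfrsf1b encodes the TNF receptor without a death domain, which is found mainly on leukocytes, glia and endothelium. It was measured at 7.996, 7.62 and 7.81 in dark-adapted and 9.08, 8.35 and 8.21 in light-damaged replicates 1 to 3, again without overlap. It rose 1.67-fold (0.74 ± 0.14, limma adjusted p = 0.036), by 1.08, 0.73 and 0.40 in pairs 1, 2 and 3. Its other probe set, of nearly the same brightness, gave 0.03 ± 0.11 and did not pass, and the mean of both probe sets gave 0.38 with an adjusted p of 0.14. The rise of Tnfrsf1b therefore rests on 1 of its 2 probe sets.

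Fas, the death receptor for Fas ligand, was dim, at the 11.2th percentile of mean values over all genes. Its values were 6.001, 5.85 and 5.74 in dark-adapted and 6.14, 5.95 and 5.63 in light-damaged replicates 1 to 3, and the groups overlapped fully. The difference was 0.04 ± 0.09, with a 95% interval of -0.18 to 0.27 (limma adjusted p = 0.88).

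**Figure D2:**
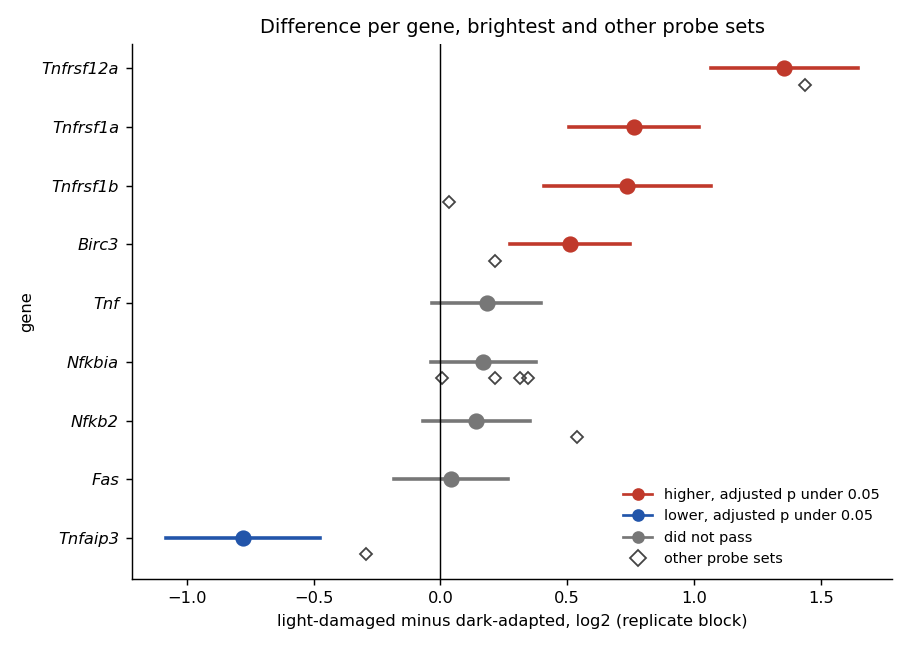
Light-damaged minus dark-adapted log2 difference of each gene from the fit with replicate block (filled points, bars are 95% intervals), with other probe sets of the same gene as open diamonds. Every other probe set has the sign of the brightest one of its gene. Those of Tnfrsf12a are close in size, at 1.36 and 1.44, whereas those of Tnfaip3 (-0.78 and -0.29), Tnfrsf1b (0.74 and 0.03) and Nfkb2 (0.14 and 0.54) differ in size.

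Among the feedback genes, Tnfaip3, which encodes the ubiquitin-editing enzyme A20, went against the receptors. It is a bright gene on this array, and its values were 11.61, 12.42 and 12.44 in dark-adapted and 11.05, 11.30 and 11.78 in light-damaged replicates 1 to 3. The groups overlapped through the replicate 1 control, which lay below light-damaged replicate 3, while within each pair the light-damaged array was lower, by 0.56, 1.11 and 0.66 in pairs 1, 2 and 3. Tnfaip3 fell by 0.78 on the log2 scale (-0.78 ± 0.13, 95% interval -1.08 to -0.47, limma adjusted p = 0.025). The second probe set, far dimmer, had a difference of -0.29 ± 0.10 that did not pass (adjusted p = 0.20 over all probe sets).

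Nfkbia encodes IkB-alpha, the inhibitor that NF-kB itself resupplies. Its brightest probe set gave 13.12, 12.79 and 12.72 in dark-adapted and 13.28, 12.91 and 12.95 in light-damaged replicates 1 to 3, with overlap. The difference was 0.17 ± 0.09, with a 95% interval of -0.04 to 0.38 (limma adjusted p = 0.37). The gene was at the 98.9th percentile of mean values. The 4 dimmer probe sets gave 0.35, 0.31, 0.22 and 0.01, of which none passed, the smallest adjusted p being 0.097.

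Birc3 encodes the ubiquitin ligase cIAP2, which limits cell death at the TNF receptor and is itself induced by NF-kB. It was measured at 8.53, 8.33 and 8.17 in dark-adapted and 9.21, 8.84 and 8.52 in light-damaged replicates 1 to 3. Each light-damaged array was above its own control, but the lowest of them lay just below the replicate 1 control. Birc3 rose 1.42-fold (0.51 ± 0.10, limma adjusted p = 0.040), by 0.67, 0.51 and 0.35 in pairs 1, 2 and 3. A second, dim probe set gave 0.22 ± 0.12 and did not pass (limma adjusted p = 0.43 over all probe sets). The mean of both probe sets gave 0.36 with a limma adjusted p of 0.10. The call of Birc3 therefore rests on 1 of its 2 probe sets.

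For Nfkb2, which encodes the p100 precursor of the p52 subunit, the 2 probe sets differed in their call. The brighter one, an x_at set, gave 8.52, 8.06 and 8.30 in dark-adapted and 8.66, 8.28 and 8.36 in light-damaged replicates 1 to 3, a difference of 0.14 ± 0.09 (limma adjusted p = 0.47). The dimmer one gave 7.89, 7.42 and 7.28 against 8.61, 7.94 and 7.65, a difference of 0.54 ± 0.10, and passed when all probe sets were tested together (limma adjusted p = 0.039). All 9 secondary probe sets of the listed genes had the sign of the primary one, and 2 of them, those of Tnfrsf12a and Nfkb2, passed.

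The genes whose values over the 6 arrays were most like those of Tnfrsf12a, by Pearson correlation, were Rac2, which encodes a GTPase of leukocytes (0.997), the interferon-inducible gene Ifi27l2a (0.995), the beta-tubulin gene Tubb6 (0.995), the interferon-induced kinase gene Eif2ak2 (0.994) and the DNA repair gene Mre11a (0.993). These arrays share the replicate 1 difference as well as the light exposure. Because the 5 genes were picked for likeness to Tnfrsf12a in the same arrays, the direction of their differences was set by the choice. Of the 5, Rac2 (1.11 ± 0.12), Ifi27l2a (1.00 ± 0.10) and Tubb6 (1.79 ± 0.13) rose, and Eif2ak2 and Mre11a did not pass, at 0.31 ± 0.09 and 0.24 ± 0.09.

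Beyond the 10 genes, 106 of 114 further genes of the pathway were measured, in lists of ligands, receptors, adaptors, kinases, NF-kB proteins, inhibitors and targets. Of these 106, 11 rose and 1 fell, which is 11.3% called, and their median difference was 0.10. Of all genes, 4.99% were called, 3.07% higher and 1.92% lower, and these shares also stand beside the counts per list below. These lists too were chosen with earlier results of these data known, so the counts describe them and do not test them. Without the block limma called none of the 106 genes, while 12 higher and 2 lower genes had an unadjusted p under 0.05.

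Among 13 other ligands 1 rose, Tnfsf13b, the B-cell survival factor BAFF (0.50 ± 0.09, limma adjusted p = 0.030). Its values were 7.01, 6.92 and 6.93 in dark-adapted and 7.57, 7.41 and 7.37 in light-damaged replicates 1 to 3, without overlap. Both of its dimmer probe sets were close to 0, at -0.03 and 0.09. Ltb, a subunit of the ligand for the lymphotoxin receptor, and Tnfsf10, the death ligand TRAIL, did not pass, at 0.44 ± 0.11 and 0.19 ± 0.11. The median of the ligand list was 0.04.

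Of 21 other receptors of the family, limma called 2 higher and 0 lower (4 and 1 at an unadjusted p under 0.05), and the median difference was 0.13. They were Ltbr, the lymphotoxin beta receptor (0.42 ± 0.09), and Tnfrsf18, the T-cell costimulatory receptor GITR (0.43 ± 0.09), with limma adjusted p-values of 0.049 and 0.045. The call of Ltbr is at the edge, since its adjusted p was 0.051 when all probe sets were tested. Ngfr, the neurotrophin receptor p75, had a difference of 0.30 ± 0.09 that did not pass.

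No gene was called by limma among 15 receptor adaptors, ubiquitin ligases and death signalling genes, of which 4 higher and 1 lower had an unadjusted p under 0.05. Closest were Cflar, which encodes the caspase-8 inhibitor c-FLIP, at -0.34 ± 0.10, Rnf31, the catalytic subunit of the linear ubiquitin ligase, at 0.44 ± 0.13, and Casp8, the initiator caspase, at 0.27 ± 0.10. Among 11 kinases and kinase adaptors upstream of NF-kB, Tab3, which links ubiquitin chains to the kinase TAK1, fell by 0.56 (-0.56 ± 0.10, limma adjusted p = 0.032). Its values were 8.84, 10.65 and 10.54 in dark-adapted and 8.17, 10.004 and 10.18 in light-damaged replicates 1 to 3, so the replicate 1 arrays differed from the rest by far more than the groups did. The IkB kinase genes Ikbkg and Ikbke did not pass, at -0.19 ± 0.09 and 0.22 ± 0.12.

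Of 8 other NF-kB and IkB proteins, 2 rose, and all 8 had a difference above 0, with a median of 0.25. Bcl3, a nuclear IkB protein that acts with the p50 and p52 subunits, rose 3.08-fold (1.62 ± 0.09, limma adjusted p = 7.9e-04). Its values were 8.21, 6.88 and 6.78 in dark-adapted and 9.91, 8.41 and 8.42 in light-damaged replicates 1 to 3. Relb, the partner of p52, rose 1.73-fold (0.79 ± 0.13, limma adjusted p = 0.028), from 7.27, 6.99 and 7.37 to 8.02, 8.12 and 7.86. The groups of both genes did not overlap. Nfkbie, which encodes IkB-epsilon, did not pass by its brighter probe set (0.29 ± 0.09), whereas its dimmer s_at set gave 1.29 ± 0.10 (limma adjusted p = 0.0024 over all probe sets).

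The list of other feedback inhibitors showed no called gene in limma among 13, with a median of -0.11, and 1 higher and 2 lower had an unadjusted p under 0.05. This list also holds Adam17 and Timp3, which belong to the shedding of TNF, so its count and median are not of feedback inhibitors alone. Tnip2, an A20-binding inhibitor, had a difference of 0.45 ± 0.10 (adjusted p = 0.065). Otud7b, a deubiquitinase related to A20, and Timp3, which inhibits the protease that sheds TNF, stood at -0.42 ± 0.12 and -0.46 ± 0.13 and did not pass either by their brightest probe sets. The dimmer sets of Otud7b gave 0.12, -0.03 and -0.23, and none passed, so its lower value rests on the brightest set. The dimmer sets of Timp3 gave -0.70, -0.69 and -0.42, and the one at -0.69 ± 0.14 passed narrowly when all probe sets were tested (limma adjusted p = 0.0499).

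Of 25 genes known as NF-kB targets, 6 were called higher and 0 lower, and the median difference was 0.32. The leukocyte adhesion molecules Vcam1 and Icam1 rose 2.76-fold (1.47 ± 0.16) and 2.02-fold (1.01 ± 0.15), and the acute phase gene Saa3 3.80-fold (1.92 ± 0.11). The values of Icam1 were 7.63, 7.20 and 7.41 in dark-adapted and 8.35, 8.65 and 8.29 in light-damaged replicates 1 to 3, without overlap. Those of Vcam1 were 7.99, 8.28 and 8.44 against 9.10, 10.24 and 9.77, also without overlap, and its dimmer probe sets gave 0.45 and 0.53. The other rises were those of the siderophore-binding gene Lcn2 (3.87 ± 0.23), the monocyte attractant Ccl2 (0.80 ± 0.09) and the stress gene Gadd45b (0.69 ± 0.09). Of the 25 targets, 21 had a difference above 0 and 4 below. Il6, Ptgs2 and Nos2, which encode interleukin-6, cyclooxygenase-2 and inducible nitric oxide synthase, did not pass by their brightest probe sets, at 0.58 ± 0.34, 0.12 ± 0.17 and 0.05 ± 0.09. Il1b and Ccl5 did not pass either, at 0.66 ± 0.16 and 1.21 ± 0.29 (limma adjusted p = 0.070 and 0.074). Both were higher in 3 of 3 pairs, with groups that overlapped. The value of Il6 was 6.71 in light-damaged replicate 1 and between 4.43 and 4.92 in the other 5 arrays, so its difference came from 1 array. The dimmer probe set of Ptgs2 gave 0.49 ± 0.09, higher in 3 of 3 pairs, and passed when all probe sets were tested (limma adjusted p = 0.032). In all, 5 further pathway genes that were not called had a dimmer probe set that passed in that fit, 4 higher (Nfkbie, Ptgs2, Cxcl1 and Csf1) and 1 lower (Timp3).

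**Figure D3:**
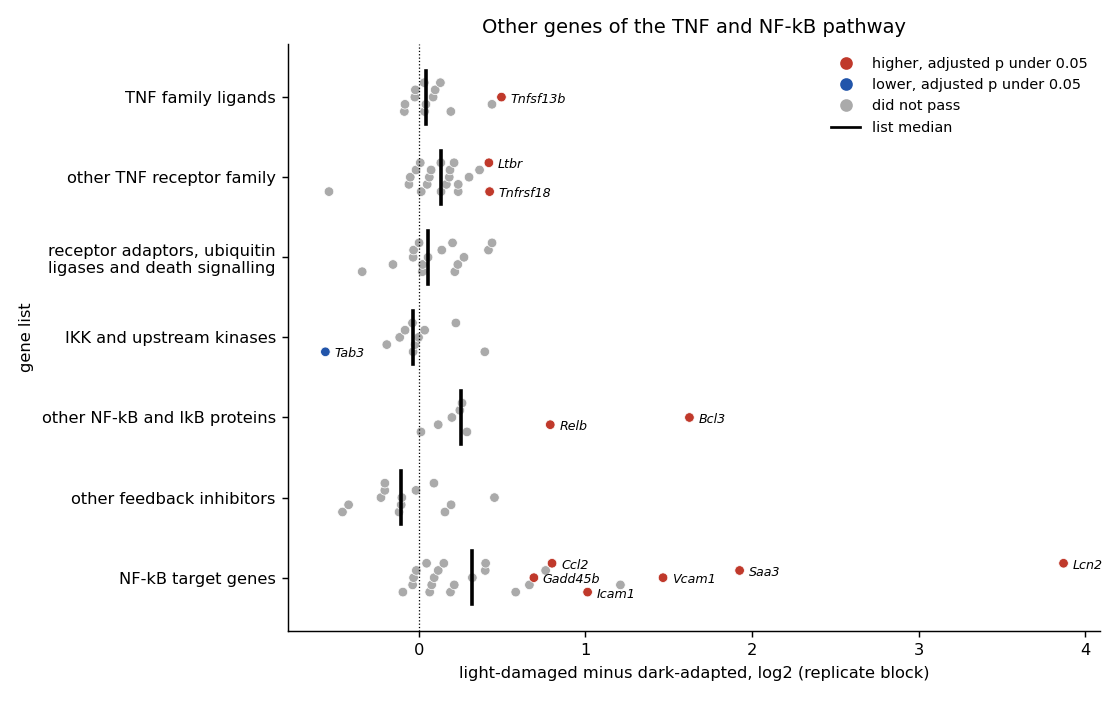
Light-damaged minus dark-adapted log2 difference of 106 further pathway genes by list, with genes called higher in red, called lower in blue and the list median as a bar. Called genes include 6 of 25 NF-kB targets and 2 of 8 other NF-kB and IkB proteins, and none among the adaptors or the other feedback inhibitors. Of all genes, 4.99% were called.

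Cell type markers moved in the same arrays. Of 12 markers of RPE, 10 had a mean above the 90th percentile of all genes, as had 9 of 11 of photoreceptors, so photoreceptor transcripts were among the brightest beside those of the RPE. Of 12 macrophage and microglia markers 11 rose and none fell, and the summed level of the list, on the linear scale of the arrays, was 19608 to 26966 in dark-adapted and 27355 to 39974 in light-damaged arrays. All but Csf1r (-0.15 ± 0.09) of these markers rose, and the least bright of the list lay at the 30.7th percentile. Csf1r was the brightest, with mean log2 values of 13.60 in dark-adapted and 13.45 in light-damaged arrays, so it weighs most in that summed level. Of 8 neutrophil markers S100a8 and S100a9 rose. None of 6 lymphocyte markers was called by limma or had an unadjusted p under 0.05. Among 8 endothelial markers Vwf rose. Among 8 markers of Mueller glia, the supporting glia of the retina, the intermediate filament genes Vim (1.28 ± 0.12, limma adjusted p = 0.0045) and Gfap (0.74 ± 0.11, adjusted p = 0.017) rose. The other 6 were not called. Of the 8, 3 had a difference above 0 and 5 below, with a median of -0.13. In limma, 4 were lower at an unadjusted p under 0.05. The summed level of the list was 40484 to 54091 in dark-adapted and 36778 to 48246 in light-damaged arrays. That sum includes Rlbp1, a bright gene that is also in the RPE list (-0.62 ± 0.15, not called), so it is not particular to Mueller glia. Among 8 pericyte and fibroblast markers the collagen gene Col3a1 rose (0.82 ± 0.13, limma adjusted p = 0.021), and the summed level was 18008 to 24427 and 22860 to 24370. Of the RPE markers 3 fell and none rose, with a summed level of 109968 to 142048 in dark-adapted and 75771 to 108719 in light-damaged arrays. Of the photoreceptor markers 5 fell, and their summed levels were 97636 to 135959 and 70331 to 111557. Fewer cells of a type and less RNA per cell cannot be told apart in such samples. The part of these shifts in the rises of Tnfrsf1b, Tnfrsf12a and the NF-kB targets, and in the fall of Tnfaip3, was not tested.

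**Figure D4:**
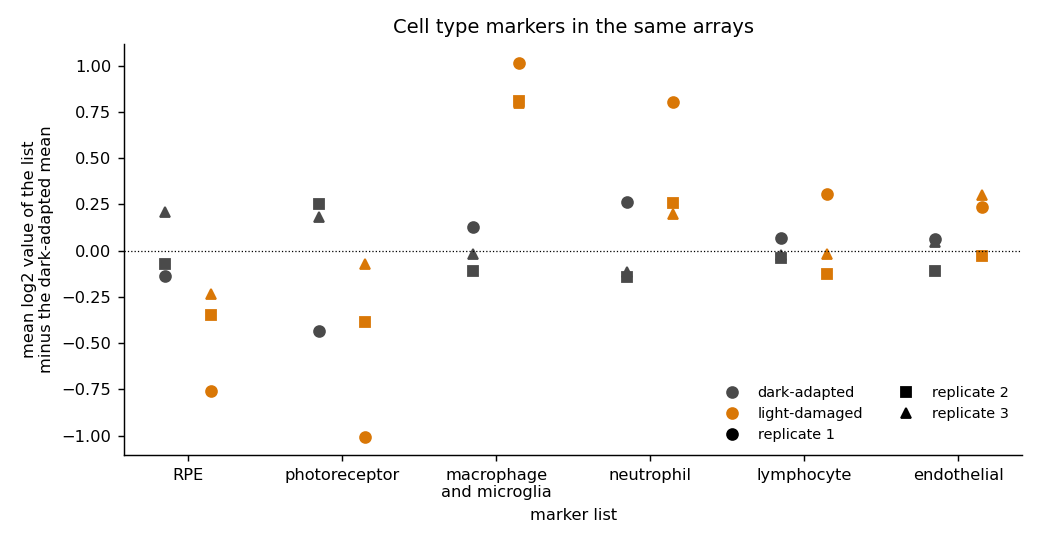
Mean log2 value of 6 of the 8 marker lists in each array, minus the mean of the 3 dark-adapted arrays for that list, with dark-adapted arrays in grey, light-damaged arrays in orange and marker shapes for the replicate number. Macrophage and microglia markers are higher in all 3 light-damaged arrays, RPE and photoreceptor markers are lower in the light-damaged array of each pair, and the replicate 1 array is the lowest of its group for both.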

How the data were processed

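Total RNA of RPE was biotin-labelled by a small-sample protocol and hybridised to 6 Affymetrix mouse arrays. The deposited log2 values per probe set were made by the authors with RMA, per the submitters' processing notes; its version is not given in the sources used, and log2 was read from the values. They carry no detection calls, and the number of arrays limits precision.

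Of 45101 probe sets, 34945 had exactly 1 gene symbol in the platform annotation, 932 several, 64 were controls and 9160 were unnamed. The brightest probe set stood for a gene (18193 genes). The light-damaged and dark-adapted arrays entered limma 3.58.1 (lmFit, eBayes, R 4.3.3, two-sided, Benjamini-Hochberg over all genes) with the replicate number as a block and 2 residual degrees of freedom, checked on simulated data. The labels number replicates alike in both groups. Deviations of same-numbered arrays from group means correlated across genes at 0.89, 0.62 and 0.86, above the bound of 0.1, and were taken as pairs. Between number 2 in the dark and number 3 in the light the value was 0.65, above the 0.62 of the number 2 pair. Between number 3 in the dark and number 2 in the light it was 0.61. Both swapped values pass the bound too, so it cannot tell how numbers 2 and 3 pair, and these numbers are less certain than number 1. Members and lists were chosen with earlier results of these data known. Named were all members, called pathway genes, where a list had under 3 of these the genes of smallest p up to 3, and the 5 genes most like the leading member. Il6, Ptgs2, Nos2, Il1b, Ccl5, secondary probe sets of pathway genes and the marker genes were added with their values in view. The alternatives were pairing, normalization, a dim-gene filter, a pseudocount of 16, probe set choice, limma settings, array weights and leaving out replicate pairs.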

Additional observations from a re-analysis of the deposited data

How the results depend on the processing

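With all 6 arrays, the calls depended most on the replicate block. With no replicate block, limma called 9 genes higher and 0 lower (360 lower at an unadjusted p under 0.05), 0 of the 9 members in either direction (4 higher and 1 lower unadjusted) and 0 further pathway genes in either direction (12 and 2 unadjusted). Among members, 2 were called higher with quantile normalization and 2 with the mean over probe sets, where Birc3 and Tnfrsf1b were lost in both. The filter on dim genes tested 9096 genes, 5 of the members and 50 of the further pathway genes. It called 365 genes higher, 3 members higher and 1 lower, and 5 further pathway genes higher. Array weights called 1099 genes higher and 776 lower, and 18 and 3 further pathway genes. Leaving out a replicate pair, which leaves 1 residual degree of freedom, gave 160 to 827 genes higher, 68 to 418 lower, 1 to 4 members higher, 0 to 1 lower, 5 to 15 further pathway genes higher and 0 to 1 lower, the low ends all without replicate 3. A setting added after seeing the data, without both replicate 1 arrays and without block, called 576 genes higher and 217 lower, 3 members higher and 1 lower, and 11 further pathway genes higher and 0 lower (2 lower unadjusted). The causes were not tested. The differences of Tnfrsf12a ranged from 1.22 to 1.51, of Tnfrsf1a from 0.65 to 0.86 and of Tnfaip3 from -0.89 to -0.54 over all settings. Fas changed sign, never called. The deposited values hold no detection calls, so how far a dim gene such as Fas lay above background is not known here.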
